A study of Mus musculus with 17 samples.

Results

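The genes of glycolysis, the pentose phosphate pathway and the cellular response to low oxygen were followed through 5 groups of sorted mouse brain myeloid cells. The group was set by name: 35 genes were listed by their known role, 34 of them were measured among 13501 genes, and the remaining one, Ero1l, was not analysed here. All 34 passed the requirement of a normalized count of 10 or more in at least 3 of the 17 libraries, as did 12074 of the 13501 genes.

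Every library was made from DAPI-negative CD45+CD11b+ brain cells, a sort that takes microglia together with other myeloid cells. Normal microglia came from untreated wild-type mice without 5XFAD (3 libraries). Trem2-WT; 5XFAD microglia (3 libraries) and Trem2-KO; 5XFAD microglia (3 libraries) came from untreated mice carrying 5XFAD, a transgene set driven in neurons by the Thy1 promoter that gives amyloid plaques. TREM2 is a lipid-sensing receptor on the microglial surface, and Trem2-KO marks mice that lack it. The other 2 groups were labelled circulation-derived myeloid cells from Trem2-KO; 5XFAD hosts after BMT+PLX5622: one with cells of Trem2-WT donors (4 libraries) and one with cells of Trem2-KO donors (4 libraries). The design text describes bone-marrow cells given together with PLX5622, an inhibitor of CSF1R that removes microglia. Both transplanted groups thus share the treatment and the Trem2-KO; 5XFAD host, and a host's own remaining microglia would pass the same sort. Age, sex, the number of mice behind a library and the exact Trem2 allele were not given in the sources used here. Libraries are called below by their sequencing numbers, S20 to S36, because outside the normal group no label ties a library to a replicate number.

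Glycolysis splits glucose into pyruvate in the cytosol, and lactate dehydrogenase converts pyruvate and lactate into each other. The pentose phosphate pathway branches off at glucose 6-phosphate and makes NADPH and ribose. HIF-1, built from HIF-1α (Hif1a) and its partner ARNT, raises the transcription of most glycolytic enzymes. In oxygen the prolyl hydroxylases encoded by Egln1, Egln2 and Egln3 mark HIF-1α for destruction through the von Hippel-Lindau protein (Vhl). HIF-1 binds DNA at a core of ACGTG or GCGTG, and myeloid cells also raise Hif1a and glycolysis when they are activated without any lack of oxygen.

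Promoter letters are shown first, because several of the genes that moved together are textbook HIF-1 targets. The sequences come from RefSeq (GRCm38.p6), which held a promoter window, 250 bases before to 50 after a transcript start, for 33 of the 34 measured genes. At least 1 window held ACGTG on either strand in 21 of these 33 genes (63.6%), against 28.2% of the 10751 genes of the expression table with a window. GCGTG was found in 23 of 33 (69.7%) against 53.7%, and either one in 30 of 33 (90.9%) against 65.1%. Matches on opposite strands can overlap, as in CACGTG, and each strand was then counted. A match describes letters only and is neither a binding site nor a cause. The 5 windows below are the 250 bases before the start, 5′ to 3′ on the gene's strand, with each ACGTG or GCGTG of either strand in capitals. Egln3 and Hif1a are shown because they differed most between untreated 5XFAD and normal microglia among the genes of oxygen sensing. Ldha, Pgk1 and Ldhb are shown because the first pair rose in the same comparison while the third, encoding the other lactate dehydrogenase subunit, did not.
Egln3 (chr12:54203875-54204124, minus strand): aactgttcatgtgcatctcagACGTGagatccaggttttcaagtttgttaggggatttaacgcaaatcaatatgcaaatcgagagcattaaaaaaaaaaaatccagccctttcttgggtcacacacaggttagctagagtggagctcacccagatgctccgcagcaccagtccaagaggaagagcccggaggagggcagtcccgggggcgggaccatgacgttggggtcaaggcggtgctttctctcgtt
Hif1a (chr12:73907617-73907866, plus strand): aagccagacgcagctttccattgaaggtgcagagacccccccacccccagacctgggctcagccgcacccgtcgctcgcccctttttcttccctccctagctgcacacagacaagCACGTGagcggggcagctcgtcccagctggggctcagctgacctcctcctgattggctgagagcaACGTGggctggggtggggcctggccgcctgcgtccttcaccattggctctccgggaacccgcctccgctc
Ldha (chr7:46845554-46845803, plus strand): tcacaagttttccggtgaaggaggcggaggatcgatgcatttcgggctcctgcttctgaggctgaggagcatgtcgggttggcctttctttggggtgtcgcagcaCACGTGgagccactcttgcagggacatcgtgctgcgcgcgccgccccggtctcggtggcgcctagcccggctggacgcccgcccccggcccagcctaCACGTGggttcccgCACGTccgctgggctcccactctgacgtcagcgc
Pgk1 (chrX:106186850-106187099, plus strand): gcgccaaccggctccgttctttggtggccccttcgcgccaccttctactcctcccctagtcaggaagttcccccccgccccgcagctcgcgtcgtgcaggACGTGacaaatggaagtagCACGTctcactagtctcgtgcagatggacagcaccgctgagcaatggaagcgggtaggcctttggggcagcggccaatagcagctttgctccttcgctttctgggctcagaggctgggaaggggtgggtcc
Ldhb (chr6:142507958-142508207, minus strand): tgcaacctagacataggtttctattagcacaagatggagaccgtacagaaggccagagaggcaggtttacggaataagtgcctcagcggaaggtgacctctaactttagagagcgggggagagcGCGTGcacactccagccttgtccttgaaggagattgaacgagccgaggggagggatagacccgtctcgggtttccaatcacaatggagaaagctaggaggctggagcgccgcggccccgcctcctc
In these 250 bases Ldha held 5 matches to ACGTG, Hif1a 3, Pgk1 2, Egln3 1 and Ldhb 0, and only Ldhb among the 5 held GCGTG, at 1 place. A second RefSeq start of Ldha, farther downstream, had 0 matches to ACGTG and 1 to GCGTG in the same 250 bases. The matches that follow are also those in the 250 bases before a start. Of the other members that rose from normal to Trem2-WT; 5XFAD microglia, Gpi1, Tpi1, Gapdh, Eno1 and Pdk1 held 0 matches to ACGTG. Aldoa, Pgam1, Pkm and Vegfa held 1 in at least 1 window. Of members that did not pass the test given below, Hk2, Hk3, Pfkm, Pfkfb3, Pdk3, Egln1, Egln2, Bnip3, P4ha1 and Ankrd37 held at least 1. Hk1, Pfkl, Pfkp, Pfkfb4, Vhl, G6pdx, Pgd, Tkt and Taldo1 held 0. In the full windows, which run 50 bases past the start, Gapdh and G6pdx held 1 match to ACGTG. Hk1 held 2 there at 1 of its starts, and the count of 21 genes above includes these genes.

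The values are read counts divided by 1 size factor per library, here called normalized counts, and the libraries held 16044078 to 30606394 counted reads. Trem2, the gene removed, followed every label: 31205 to 37459 in normal microglia, 49347 to 53077 in Trem2-WT; 5XFAD microglia, 37066 to 53908 in cells of Trem2-WT donors, 4367 to 5965 in Trem2-KO; 5XFAD microglia and 3962 to 5211 in cells of Trem2-KO donors. All 8 microglial markers were above 0 in all 17 libraries, but their summed level was 308757 to 387618 in transplanted cells against 611117 to 803971 in the 3 microglial groups. The summed level of 7 markers of brain macrophages of blood origin was 51820 to 72375 in transplanted cells and 5299 to 10750 in microglia. Among these Ms4a7 was 15783 to 26888 in transplanted cells and 335 to 1309 in microglia. Ccr2 did not follow, at 232 to 843 against 298 to 1896, and Apobec3 overlapped, at 1912 to 2574 against 1285 to 1933. 4 libraries stood apart. S26 differed from the other Trem2-KO; 5XFAD libraries by a chi-square of 130 per degree of freedom (S25 and S27 differed by 9.61), and S34 from the other Trem2-KO donor libraries by 53.6 to 86.1 (17 to 22.4 among those). S30 and S31 differed from S28 and S29 by 41.3 to 47.6 and from each other by 4.92, while S28 and S29 differed by 33.1, and S30 and S31 held 23762 and 24041 summed counts of 8 oligodendrocyte markers against 7052 in S28 and 11091 in S29. S25 and S27 held 119689 and 128999 summed counts of 11 neutrophil markers, S26 54921 and the 3 Trem2-WT; 5XFAD libraries 15118 to 17994. S22 with S23 (6.11), S25 with S27 and S30 with S31 were the closest pairs. They differed beyond counting noise, which does not show that they came from separate mice or separate RNA. Each was counted as a sample of its own because the labels list it as one, and counts with each pair averaged are given as an alternative. Results that rest on the libraries standing apart are given with and without them. The labels do not say that libraries came from separate mice, so the p-values measure the spread between these libraries, and in bulk samples fewer cells of a type and less RNA per cell cannot be told apart.

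**Figure D1:**
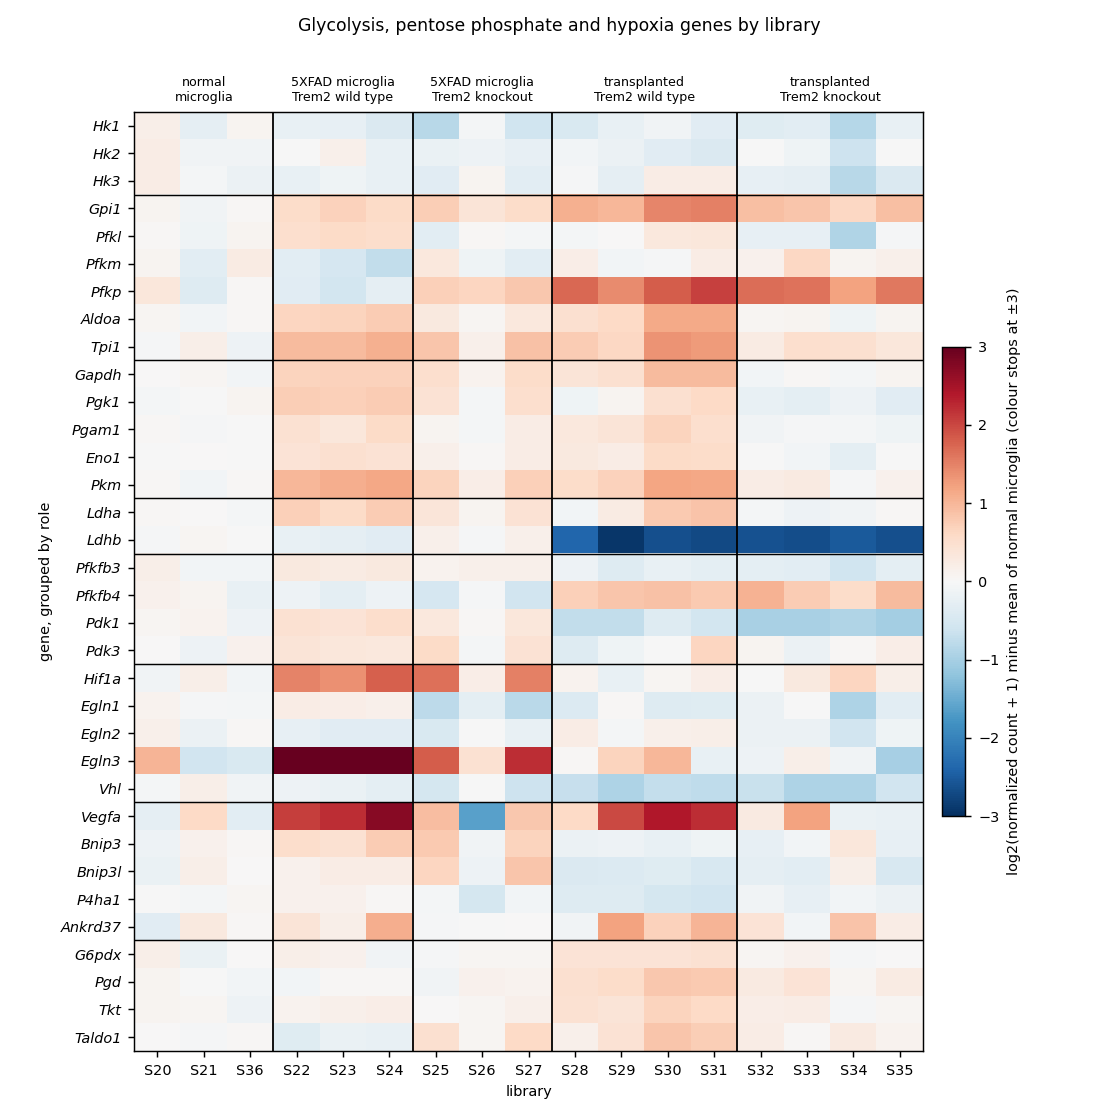
Heat map of the 34 genes (rows, grouped by role) in the 17 libraries (columns, grouped by condition), coloured by log2(normalized count + 1) minus the mean of the 3 normal libraries, with colour stopping at 3 in either direction. Egln3 is the darkest red in the 3 Trem2-WT; 5XFAD libraries, with Vegfa, Hif1a and Pkm lighter red, Ldhb is blue in the 8 transplanted libraries, and Hif1a is paler in S26 than in S25 and S27.

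Levels between genes were compared per kilobase of exon. The length took in every annotated exon of a gene, 1570 bases for Ldhb and 4133 for Gapdh. It can exceed that of the main transcript, so the ranks here and the isozyme shares below depend on it. Before division Gapdh was 15600 to 17003 in normal microglia, above the 10958 to 11736 of Ldhb. Ldhb stood highest of all members in normal microglia, with a mean of 7202 normalized counts per kilobase, and in Trem2-KO; 5XFAD microglia (7680), but at 1147 and 1182 in cells of Trem2-WT and Trem2-KO donors. Aldoa, the main aldolase, stood highest in the other groups, with 6715 in Trem2-WT; 5XFAD microglia and 7575 and 4244 in the 2 transplanted groups. Gapdh came next there, with 6373, 6528 and 3941. Egln3 was among the 2 lowest in every group but one, at 5.57 to 21.6, and reached 172 in Trem2-WT; 5XFAD microglia, above the 121 of Hk1. Vegfa was 6.26 to 32 and Pfkp 13.4 to 59.9 over the 5 group means. Of the pentose phosphate genes Taldo1, encoding transaldolase, had the highest mean in each group, 1769 to 3112.

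Isozymes of the same step were set against each other as shares of their summed level per exon kilobase, as a description without a test. Hexokinase was mostly Hk3 in every library (63.0 to 77.3%), with Hk2 at 15.8 to 27.3% and Hk1 at 6.5 to 10.5%. Phosphofructokinase was mostly the liver form Pfkl (78.8 to 95.4%). The platelet form Pfkp made up 1.0 to 1.3% in Trem2-WT; 5XFAD microglia, 1.8 to 2.6% in normal microglia, 3.2 to 4.1% in Trem2-KO; 5XFAD microglia and 5.5 to 8.0% in transplanted cells. Lactate dehydrogenase had the widest range of the 3 steps. The share of Ldha, the subunit that favours making lactate, was 23.7 to 25.1% in normal microglia, 25.7 to 28.1% in Trem2-KO; 5XFAD microglia, 36.7 to 41.0% in Trem2-WT; 5XFAD microglia, 63.0 to 67.0% in cells of Trem2-KO donors and 61.3 to 79.0% in cells of Trem2-WT donors. Only the 2 transplanted groups overlapped in that share, and no microglial library reached the lowest transplanted one.

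**Figure D2:**
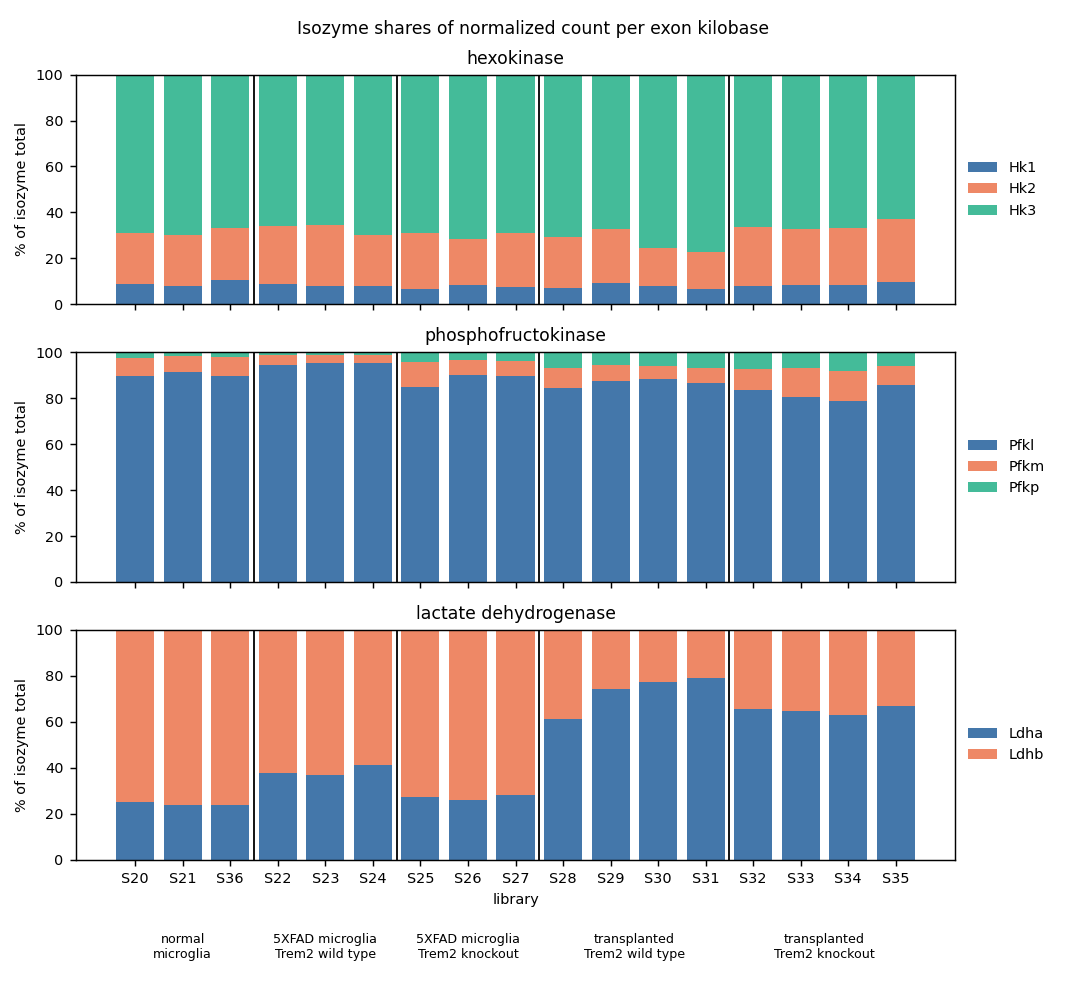
Share of each isozyme (% of the step's normalized count per exon kilobase, vertical axis) in each of the 17 libraries (horizontal axis) for hexokinase, phosphofructokinase and lactate dehydrogenase. The Ldha share is 41.0% or less in the 9 microglial libraries and 61.3% or more in the 8 transplanted libraries, while Hk3 is the largest hexokinase share in all 17.

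The first comparison asked how these pathways stand in microglia of plaque-bearing brains when Trem2 is present. Of the 34 genes 13 rose and 0 fell from normal to Trem2-WT; 5XFAD microglia by limma (adjusted p under 0.05), where 2.83% of all 12074 genes were higher and 0.952% lower. The median log2 difference was 0.31 over the 34 genes and 0.004 over all genes tested. Counts at an unadjusted p are given here and below for members only, because the share of all genes at that threshold was not counted. They therefore have no background to be read against. At an unadjusted p under 0.05, 16 were higher and 3 lower, and edgeR and DESeq2 on recovered reads also called 0 lower, while 2 were called lower in a model of the compared groups only and 3 with array weights. The rise took in 5 of 5 genes of lower glycolysis, from Gapdh to Pkm, and 3 of 6 of upper glycolysis. None of the 3 hexokinases and none of the 4 pentose phosphate genes passed the test.

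Pkm, encoding pyruvate kinase (chr9:59656368-59679375), was 11181, 10304 and 11048 in normal microglia (S20, S21, S36) and 21534, 22917 and 24047 in Trem2-WT; 5XFAD microglia (S22, S23, S24). Every 5XFAD library lay above every normal one, a rise of 2.1-fold (log2 1.07 ± 0.17 SE, adjusted p = 0.000569). Tpi1, the triose phosphate isomerase, was 4165, 4788 and 3809 against 8208, 8174 and 8822, a rise of 1.98-fold (adjusted p = 0.00485). Pgk1, which makes the first ATP of the pathway, rose 1.67-fold from 1429, 1468 and 1577 to 2472, 2453 and 2523 (adjusted p = 0.0158). In all 3 genes the groups lay apart. Here and below, how many of all genes have groups that lie apart was not counted, so a lack of overlap only describes the gene named. The other glycolytic enzymes that rose did so by 1.35-fold (Eno1, enolase), 1.37-fold (Pgam1, phosphoglycerate mutase), 1.51-fold (Gpi1, glucose 6-phosphate isomerase), 1.61-fold (Gapdh) and 1.62-fold (Aldoa, aldolase A), with no overlap between the groups in any of them. Ldha rose 1.61-fold, from 7370 to 7758 in normal libraries to 11413 to 12993 (adjusted p = 0.0413). Ldhb stood at 8882 to 9761 against 10958 to 11736 and did not pass the test (log2 -0.28 ± 0.12 SE, adjusted p = 0.229).

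Of the controlling steps, 1 of the genes named here passed the test. Pfkl, the main phosphofructokinase, was 6992 to 7377 in Trem2-WT; 5XFAD microglia and 4536 to 5242 in normal microglia without passing the test (log2 0.54 ± 0.17 SE, adjusted p = 0.106). Pfkfb3 and Pfkfb4, which set the level of fructose 2,6-bisphosphate, an activator of phosphofructokinase, gave log2 differences of 0.28 and -0.20 and did not pass. Pdk1, the kinase that closes the pyruvate dehydrogenase gate into mitochondria, rose 1.38-fold, from 1864, 1941 and 1611 to 2486, 2375 and 2607 (adjusted p = 0.0407).

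The genes of oxygen sensing gave the largest changes. Hif1a (chr12:73901375-73947530) was 2069, 2509 and 2080 in normal microglia and 6177, 5687 and 7622 in Trem2-WT; 5XFAD microglia, a 2.92-fold rise (log2 1.54 ± 0.27 SE, adjusted p = 0.00169). Egln3 (chr12:54178981-54203860), the hydroxylase that HIF-1 itself induces, was 36.2, 11.4 and 12.5 against 434, 432 and 508. That is a 24.9-fold rise on the log2(normalized count + 1) scale (log2 4.64 ± 0.51 SE, adjusted p = 1.89e-05). Vegfa (chr17:46016993-46032369), the vascular growth factor, went from 21.1, 39.0 and 20.4 to 112, 123 and 177, a 5.09-fold rise (adjusted p = 0.0367). No library of one group reached the other in any of these genes. Egln1, Egln2 and Vhl gave log2 differences of 0.20, -0.31 and -0.22, and Bnip3, Bnip3l, P4ha1 and Ankrd37, known hypoxia targets, gave 0.59, 0.19, 0.09 and 0.54. None of these 7 passed the test.

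Of 73 further pathway genes tested, 6 rose and 1 fell. The 4 with the smallest adjusted p all rose: Bhlhe40, a transcription factor induced by HIF-1 (log2 2.86, adjusted p = 4.07e-05), Slc2a6, a sugar transporter (log2 1.65, adjusted p = 0.000139), Slc16a3, the lactate exporter MCT4 (log2 0.98, adjusted p = 0.000553), and Slc2a1, the main glucose transporter (log2 0.89, adjusted p = 0.00239). Tpi1, Pkm, Hif1a and Egln3 passed the test under each of the 17 alternatives, and each of the other 9 lost its call without at least 1 single library. The count of 13 went to 7 without S20, 6 without S21 or S36, 5 without S22 or S23 and 4 without S24. Calls over all genes fell as well, from 457 to 290 without S20, 325 without S21 and 303 without S36. They were 270 without S22, 279 without S23 and 293 without S24. Several marker sums moved with this comparison without overlap. Endothelial markers were 1821 to 2110 in Trem2-WT; 5XFAD microglia and 930 to 1452 in normal microglia (8 and 7 of 8 above 0 in every library), and oligodendrocyte markers were 5884 to 7768 against 5417 to 5609 (6 of 8 in both). Lower sums were those of microglia (611117 to 623718 against 734918 to 803971, 8 of 8 in both), neutrophils (15118 to 17994 against 19519 to 32233, 11 of 11 in both), monocytes (2447 to 2720 against 3562 to 5631, 7 of 8 in both) and T and NK cells (100.2 to 187.5 against 533.5 to 884.2, 6 and 8 of 8). No marker of these lists was at 0 in every library of a group, and their part in these rises was not tested.

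**Figure D3:**
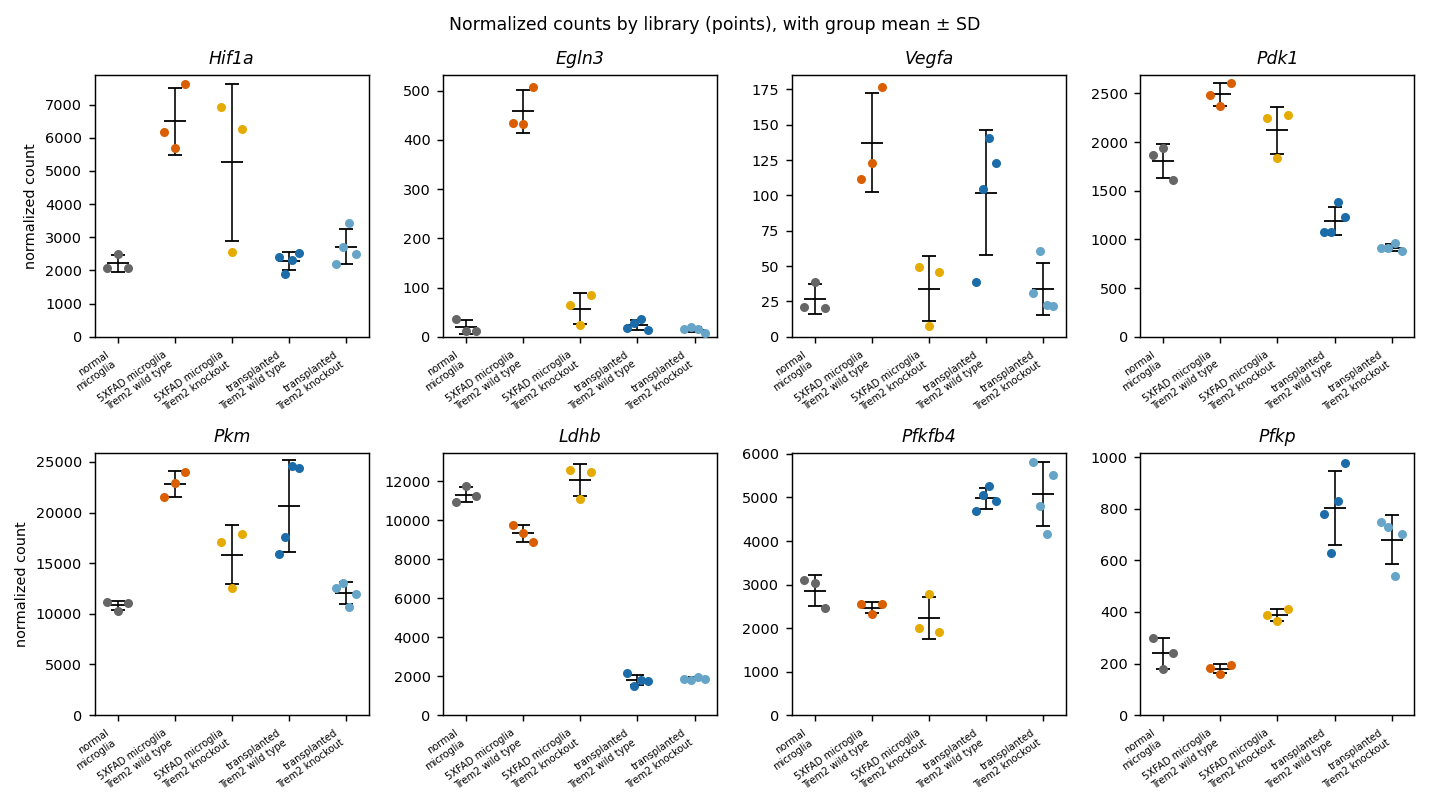
Normalized counts (vertical axis, linear) of Hif1a, Egln3, Vegfa, Pdk1, Pkm, Ldhb, Pfkfb4 and Pfkp in each library (points) of the 5 groups (horizontal axis), with the group mean (long bar) ± SD. Egln3 is at 432 to 508 in Trem2-WT; 5XFAD microglia and at 84.6 or less in every other library, and in Hif1a the library S26 lies at 2558, beside the normal microglia.

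Microglia of 5XFAD brains without Trem2 had fewer of these genes past the test over their 3 libraries. By limma 3 of the 34 genes rose and 0 fell against normal microglia (2.7% of all genes were higher and 1.21% lower, 326 and 146 genes, or 343 and 88 with upper-quartile rescaling), with a median log2 difference of 0.11 over the 34 and 0.032 over all. At an unadjusted p under 0.05, 10 were higher and 4 lower, and 0 were called lower by edgeR and 1 by DESeq2. Hif1a was 6942 in S25, 2558 in S26 and 6273 in S27, a 2.18-fold rise over normal microglia (log2 1.12 ± 0.27 SE, adjusted p = 0.0321). S25 and S27 were thus as high as the Trem2-WT; 5XFAD libraries, and S26 was just above the highest normal library, at 2509. Gpi1 rose 1.47-fold (4600, 3606 and 3990 against 2531 to 2912, adjusted p = 0.0391), and Pfkp rose 1.65-fold (388, 364 and 410 against 180 to 297, adjusted p = 0.0485).

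The same split within the group ran through most members. Pkm was 17139 in S25, 12535 in S26 and 17860 in S27, Tpi1 was 7487, 4669 and 7816, and Gapdh was 23225, 17507 and 23873. In each gene S26 lay nearer to every normal library than to S25 or S27. Without S26, 12 members rose and 4 fell, where 2213 of all 12047 genes tested were higher and 2388 lower. Tpi1 (log2 0.85), Pkm (0.69), Gapdh (0.52), Pgk1 (0.47), Pdk1 (0.33), Egln3 (2.02), Bnip3 (0.73), Bnip3l (0.75) and Taldo1 (0.54) joined Gpi1, Hif1a and Pfkp. Egln1 (-0.79), Hk1 (-0.71), Vhl (-0.58) and Pfkfb4 (-0.55) fell. With S26 as the only Trem2-KO; 5XFAD library, assumed to vary like the other groups, no member passed (1 higher and 2 lower at an unadjusted p under 0.05). None passed either when S25, S27 or any of the 3 normal libraries was left out. Over all genes 472 were called with every library, but 49 without S25 and 46 without S27. They were 110 without S20, 116 without S21 and 149 without S36. Of the 73 further pathway genes 4 rose: Anxa2, a membrane-binding protein (log2 2.00), Slc2a6 (1.15), Pygl, the glycogen phosphorylase of liver and leukocytes (1.22), and Gyg, which primes glycogen (0.72). The summed neutrophil markers (119689, 54921 and 128999 against 19519 to 32233 in normal microglia, 11 of 11 above 0) and monocyte markers (17420, 7880 and 18479 against 3562 to 5631, 8 of 8 above 0) moved with this group, highest in the libraries where these genes were highest, and their part was not tested. Csf3r, in the neutrophil sum, did not follow, at 6698, 11101 and 7184 against 10586 to 14129 in normal microglia.

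The direct comparison of Trem2-WT with Trem2-KO in 5XFAD microglia asked which of these genes differ with Trem2 in resident cells. In limma 4 of the 34 genes were higher with Trem2 and 2 were lower (2.59% and 2.5% of all genes), with a median log2 difference of 0.19 against 0.008 over all genes. Egln3 was 434, 432 and 508 with Trem2 and 63.7, 24.1 and 84.6 without it (S25, S26, S27), 8.84-fold higher (log2 3.14 ± 0.51 SE, adjusted p = 0.000933). This call held with all of the 18 alternatives, with log2 differences of 2.62 to 4.19. Vegfa was 112, 123 and 177 against 49.4, 7.7 and 45.5, 4.97-fold higher (log2 2.31 ± 0.61 SE, adjusted p = 0.0332), and Egln1, the main oxygen-sensing hydroxylase, was 1075, 1061 and 1016 against 536, 744 and 521, 1.77-fold higher (adjusted p = 0.0203). Pfkl was 1.57-fold higher, at 6992, 7377 and 7162 against 3973, 5031 and 4759 (adjusted p = 0.0351). The groups did not overlap in any of the 4.

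Pfkp was lower with Trem2, at 184, 160 and 193 against 388, 364 and 410, a 2.16-fold difference (log2 -1.11 ± 0.20 SE, adjusted p = 0.002). Taldo1 was 3581, 3994 and 3945 against 6410, 4794 and 6907, 1.56-fold lower (adjusted p = 0.023). Hif1a itself did not differ by the test (log2 0.42 ± 0.27 SE, adjusted p = 0.359), and S25 and S27 lay within the Trem2-WT range. The main glycolytic enzymes were on the higher side with Trem2 without passing: Pkm by log2 0.54 (adjusted p = 0.0675), Pgam1 by 0.37 (0.0633), Aldoa by 0.47 (0.0907) and Ldha by 0.39 (0.223).

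The calls changed with the knockout libraries used. Without S26 limma called 2067 of all 12047 genes tested higher and 1606 lower. Among members the counts were 5 higher and 4 lower, with Bnip3l (log2 -0.56), Ldhb (-0.43) and Vhl (0.35) added. In a fit with S26 alone, Egln3 (log2 4.19) and Vegfa (3.97) were again higher, as were Hif1a (1.33), Pkm (0.86) and P4ha1 (0.63). The differences of Pfkl (0.51), Egln1 (0.50), Pfkp (-1.03) and Taldo1 (-0.32) were smaller in size than with all libraries. That fit has 1 library in the group, so its calls are not counted here. Egln3 and Vegfa were higher with Trem2 in both of these fits. Of the members 2 passed without S22, S23 or S24, and 3 without S25 or S27. Pfkl, Egln1 and Taldo1 lost their calls without any 1 of these 5, and Vegfa without S22, S23 or S24. Calls over all genes also fell, from 615 to 307, 312 and 339 without S22, S23 and S24, and to 298 and 305 without S25 and S27. Of the 73 further pathway genes 4 were higher and 4 lower with Trem2: Slc2a1 by log2 1.20 (adjusted p = 0.000134), Bhlhe40 by 2.02 (0.00116) and Slc16a3 by 0.76 (0.00484) were higher, and Anxa2 by -1.23 (0.00405) was lower. The neutrophil and monocyte sums given above move with the genes that were lower with Trem2, and their part was not tested.

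**Figure D4:**
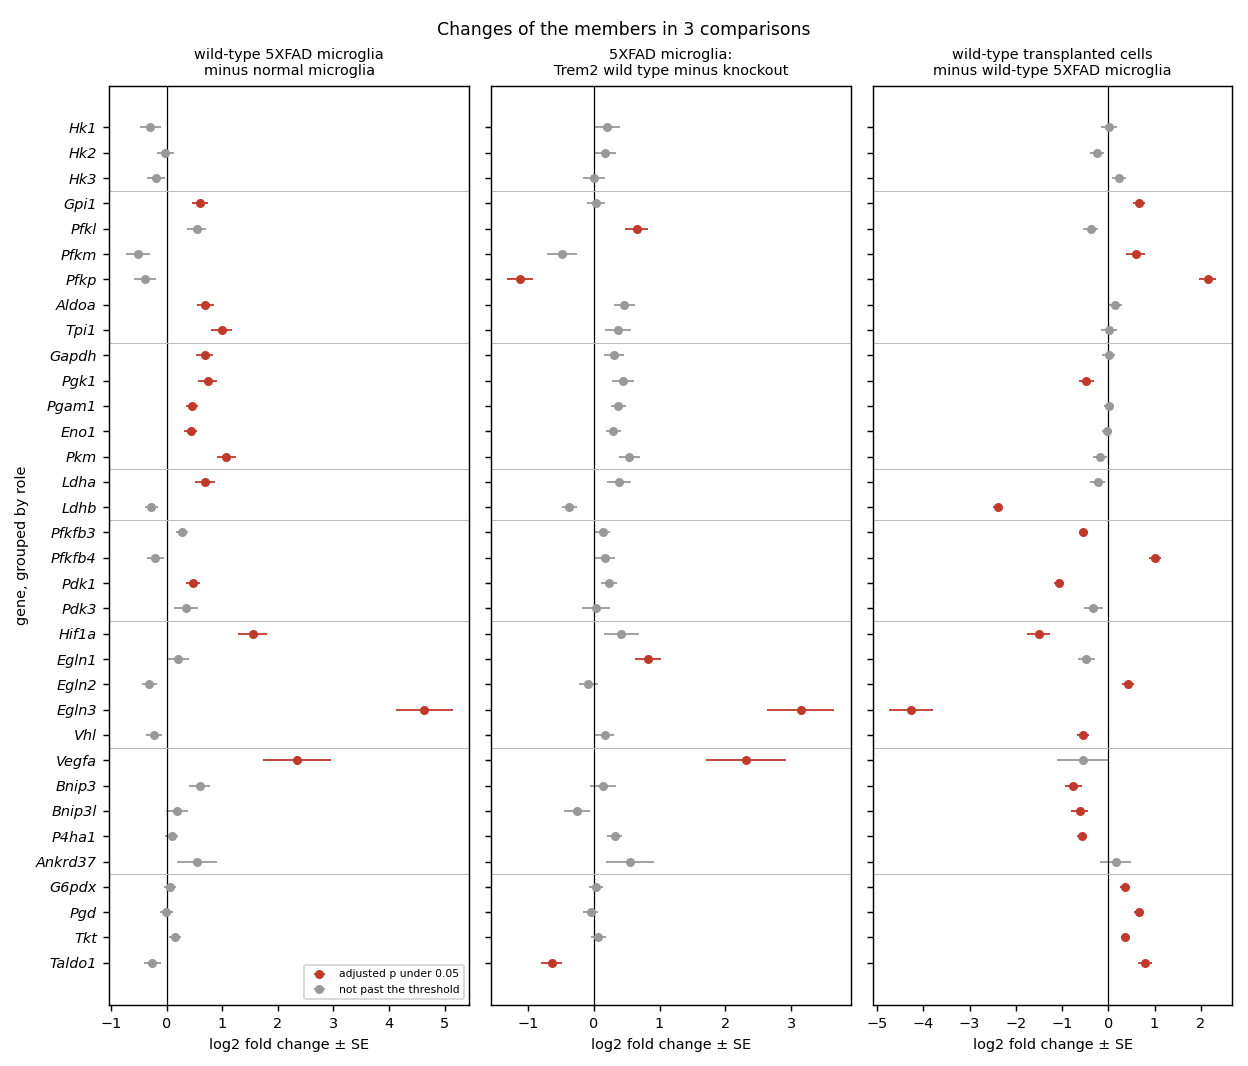
Log2 fold change ± SE (horizontal axes) of the 34 genes (rows, grouped by role) in 3 comparisons, in red where the adjusted p was under 0.05 and in grey otherwise. Egln3 is at 4.64, 3.14 and -4.27 in the 3 panels, and Ldhb at -2.38 and Pfkp at 2.15 stand out in transplanted cells.

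Cells labelled as circulation-derived had less Ldhb, Pdk1, Pfkfb3, Hif1a and Egln3, and more Pfkp and Pfkfb4, than 5XFAD microglia of the same Trem2 genotype, in both genotypes. Between the Trem2-WT groups 9 of the 34 genes were higher in transplanted cells and 10 lower (13.6% and 14.6% of all genes, median log2 -0.10 over the 34 and -0.026 over all). Between the Trem2-KO groups 2 were higher and 8 lower (11.7% and 13.7%, median -0.22 and -0.022). Origin, transplantation, PLX5622 and, for the Trem2-WT pair, the host's own genotype differ together here and cannot be told apart.

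Ldhb, the lactate dehydrogenase subunit that favours pyruvate (chr6:142490249-142507957), was the clearest. It was 2155, 1493, 1816 and 1741 in cells of Trem2-WT donors (S28 to S31) and 1845, 1782, 1967 and 1831 in cells of Trem2-KO donors (S32 to S35), against 9761, 9335 and 8882 in Trem2-WT; 5XFAD microglia and 12583, 11100 and 12491 in Trem2-KO; 5XFAD microglia. No transplanted library came near a microglial one, and the fall was 5.22-fold with Trem2 (log2 -2.38 ± 0.11 SE, adjusted p = 1.8e-11) and 6.49-fold without it (log2 -2.70 ± 0.11 SE, adjusted p = 9.07e-12). Ldha did not pass the test in either pair (log2 -0.23 and -0.37).

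Pfkp (chr13:6579768-6648777) was 779, 629, 828 and 976 in cells of Trem2-WT donors, 4.43-fold above the 160 to 193 of Trem2-WT; 5XFAD microglia (log2 2.15 ± 0.18 SE, adjusted p = 5.47e-08). In cells of Trem2-KO donors it was 750, 730, 540 and 702, 1.74-fold above the 364 to 410 of Trem2-KO; 5XFAD microglia (adjusted p = 0.00323). Pfkfb4, whose product makes and removes fructose 2,6-bisphosphate, was 4686 to 5266 and 4160 to 5817 in the transplanted groups against 2326 to 2547 and 1899 to 2781 in the microglial ones, 2.02-fold (adjusted p = 2.12e-05) and 2.3-fold higher (adjusted p = 3.43e-06). Its relative Pfkfb3 fell by 0.54 and 0.52 on the log2 scale in the same pairs (adjusted p = 0.000732 and 0.00122). The 2 regulators thus moved in opposite directions in both pairs, with no overlap between groups.

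Pdk1 was 1077, 1079, 1380 and 1234 in cells of Trem2-WT donors and 916, 910, 961 and 881 in cells of Trem2-KO donors, below every microglial library (1611 to 2607). It fell 2.1-fold against Trem2-WT; 5XFAD microglia (adjusted p = 1.18e-06) and 2.3-fold against Trem2-KO; 5XFAD microglia (adjusted p = 3.54e-07). Hif1a was 2393, 1898, 2315 and 2535 with Trem2, beside 2069 to 2509 in normal microglia, and 2197, 2699, 3447 and 2511 without it. It fell 2.84-fold in the Trem2-WT pair (adjusted p = 0.000164) and 1.8-fold in the Trem2-KO pair (adjusted p = 0.0178), where S26 lies inside the transplanted range. The last call ended without S25, S27 or S32, and without both S25 and S27 the difference turned to log2 0.065 (adjusted p = 0.868). Egln3 was 17.9, 28.4, 35.5 and 14.6 and 15.4, 19.6, 15.98 and 8.24 in the 2 transplanted groups, 19.3-fold lower in the Trem2-WT pair (adjusted p = 1.73e-06) and 3.41-fold lower in the Trem2-KO pair (adjusted p = 0.0101). Leaving out S27 ended the Egln3 call of the Trem2-KO pair, as did leaving out S25 and S27 together (log2 -0.72).

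Bnip3l, a mitophagy receptor, fell in both pairs (log2 -0.62 and -0.67), as did Vhl (-0.55 and -0.39) and Pgk1 (-0.48 and -0.54), the one gene of lower glycolysis called in either pair. Bnip3 (-0.76), its close relative, and P4ha1 (-0.57), the collagen prolyl hydroxylase subunit, fell in the Trem2-WT pair, where all 4 pentose phosphate genes rose: Taldo1 by log2 0.79, Pgd by 0.66, Tkt by 0.37 and G6pdx by 0.36. Gpi1 (0.67), Pfkm (0.60) and Egln2 (0.43) rose there as well. None of these 9 passed in the Trem2-KO pair. The test of the difference between the pairs, which is the interaction given further on, passed for Taldo1 and P4ha1 and not for the other 7. Single libraries ended the calls of Pfkm (S23, S24, S28, S30 or S31), Pgk1 (S22, S23, S24, S28 or S29), Egln2 (S23, S24 or S31), Bnip3l (S23 or S24), G6pdx (S24) and Tkt (S22) in the Trem2-WT pair. In the Trem2-WT pair without S30 and S31, 5 members were higher and 12 lower (947 and 1345 of all 11940 genes tested). Gpi1 (0.44), Pgd (0.52) and Taldo1 (0.55) stayed among the higher, Pgk1 reached -0.75, and Ldha (-0.60), Pkm (-0.45) and Pdk3 (-0.61) fell.

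In the Trem2-KO pair the groups overlapped in Hif1a, Bnip3l and Vhl. Vhl (adjusted p = 0.0488) lost its call under 12 of 19 alternatives, among them those without S25, S26, S32, S33 or S34. Pgk1 and Bnip3l lost theirs without S25 or without S27. Without S26, 2 members were higher and 13 lower (2253 and 2263 of all 12047 genes tested). Bnip3, Gapdh, Ldha, Pkm, Taldo1 and Tpi1 were then among the lower. Ldhb, Pfkp, Pfkfb4, Pfkfb3 and Pdk1 kept their calls in both pairs under all 19 alternatives of each.

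Of the 73 further pathway genes 11 were higher and 17 lower in the Trem2-WT pair, and 5 and 16 in the Trem2-KO pair. Slc2a5, the fructose transporter GLUT5 and a known microglial gene, was 782 to 1636 and 831 to 2126 in the transplanted groups against 17111 to 19113 and 16242 to 25733 in the microglial ones (log2 -4.16, adjusted p = 1.16e-09, and -3.82, adjusted p = 4.67e-09). Slc2a6 went the other way (log2 2.06, adjusted p = 4.24e-07, and 2.30, adjusted p = 1.34e-07). In the Trem2-WT pair Slc16a1, the lactate transporter MCT1 (-1.72), and Mxi1, an antagonist of MYC (-1.45), followed, and in the Trem2-KO pair Gpd1, a glycerol 3-phosphate dehydrogenase (-2.84), and Eno3, the muscle enolase (-1.27). The microglial marker sums given above moved with all of these differences, as did the astrocyte sum, at 791.5 to 1571 in transplanted cells against 4912 to 8835 in 5XFAD microglia (7 of 7 above 0 in every library). Slc1a3 alone was 122 to 326 against 3241 to 4930 of that sum. Aldoc and Gja1 also lay apart, while Slc1a2, Aqp4, Gfap and Clu overlapped. In the Trem2-KO pair neutrophil sums were 15892 to 36163 against 54921 to 128999 and monocyte sums 3672 to 6015 against 7880 to 18479. The part of these cells was not tested.

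Among transplanted cells, donors with and without Trem2 were compared in the same Trem2-KO; 5XFAD host. By limma 13 of the 34 genes were higher with Trem2-WT donors and 0 lower (3.75% and 2.99% of all genes), with a median log2 difference of 0.38 over the 34 and 0.046 over all. They were Gpi1, Pfkl, Aldoa and Tpi1 of upper glycolysis, all 5 genes of lower glycolysis, Pdk1, and G6pdx, Pgd and Tkt of the pentose phosphate pathway. None of the hexokinases, lactate dehydrogenases, oxygen-sensing genes or hypoxia targets passed. At an unadjusted p under 0.05, 18 were higher and 1 lower, and edgeR and DESeq2 each called 1 lower. With TMM rescaling 9 members were higher and P4ha1 was lower, and over all genes the split of 453 higher and 361 lower became 364 and 639.

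Aldoa was 16831, 18285, 26651 and 26433 in cells of Trem2-WT donors (S28 to S31) and 12648, 12889, 11091 and 12783 in cells of Trem2-KO donors (S32 to S35), 1.75-fold higher (log2 0.81 ± 0.13 SE, adjusted p = 0.00523). Pkm was 15881, 17555, 24642 and 24354 against 12596, 13086, 10637 and 11946, 1.68-fold higher (adjusted p = 0.00931). Gapdh was 21558, 22848, 31779 and 31730 against 15423, 16820, 15685 and 17232, 1.63-fold higher (adjusted p = 0.00841). In all 3 genes the lowest library with Trem2 lay above the highest without it, and S30 and S31 lay well above S28 and S29. Pgam1 (1.47-fold), Eno1 (1.42-fold), Pgk1 (1.43-fold) and Tpi1 (1.52-fold) showed the same order, and Pfkl (1.43-fold) was the one called gene whose groups overlapped. Among pentose phosphate genes G6pdx, the first and rate-limiting enzyme, was 3593, 3582, 3578 and 3738 against 2825, 2965, 2647 and 2748, 1.3-fold higher (adjusted p = 0.0282), and was about as high in S28 and S29 as in S30 and S31. Vegfa was 39.1, 105, 141 and 123 against 30.9, 60.7, 22.4 and 21.97 and did not pass (log2 1.54 ± 0.53 SE, adjusted p = 0.0794).

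Without S30 and S31 none of the 13 passed, and 8 members were higher and 0 lower at an unadjusted p under 0.05. The log2 differences then were 0.51 for Aldoa (adjusted p = 0.0755), 0.44 for Pgam1 (0.13), 0.45 for Gapdh (0.169), 0.47 for Pkm (0.205) and 0.36 for G6pdx (0.255), and over all genes tested 15 were called in place of 814. Leaving out S30 or S31 alone left 4 calls among members and 113 over all genes. The 4 were Aldoa, Gapdh, Pgam1 and Pkm, which also held without any other single library. Without S34 5 members passed (175 over all genes), without S35 7 (469) and without S33 8 (395). Averaging the closest pairs, S30 with S31 among them, left 0 (27). S30 and S31 also held more of several other cell types: 1736 and 1788 summed counts of 8 endothelial markers against 414 and 722 in S28 and S29 and 437 to 538 with Trem2-KO donors, and oligodendrocyte markers as given above against 4527 to 6226 with Trem2-KO donors, where Cldn11 was at 0 throughout. Erythroid sums (5 markers) were 2188 and 2064 against 287.4 and 504.9 in S28 and S29 and 16.48 to 797.2 with Trem2-KO donors, and T and NK cell sums (8 markers) were 2798 and 2736 against 420.5 and 948.4 and 1836 to 3817. The part of these cells in the differences was not tested. Of the 73 further pathway genes Slc16a3 (log2 0.87, adjusted p = 0.00243) and Ndrg1 (2.15, adjusted p = 0.0471) were higher and Rpia, a pentose phosphate isomerase, was lower (-1.79, adjusted p = 0.0245). Ndrg1 was 99.5 and 126 in S28 and S29, 1351 and 1162 in S30 and S31, and 63.9 to 125 with Trem2-KO donors.

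**Figure D5:**
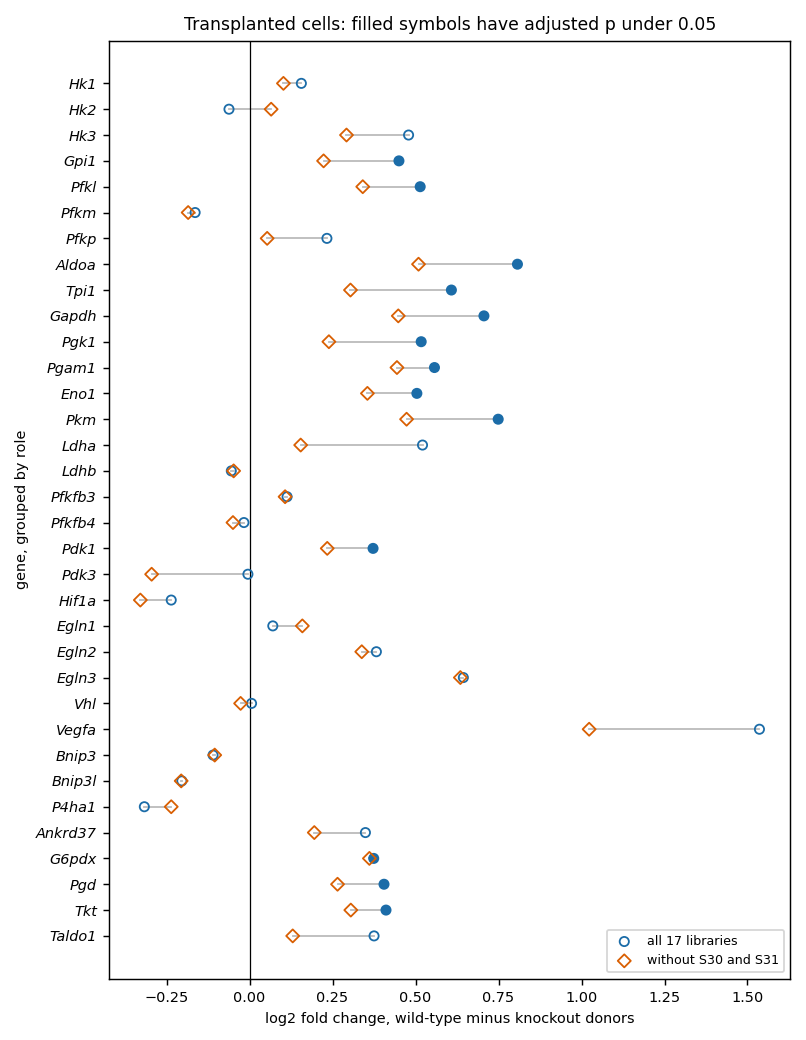
Log2 fold change of Trem2-WT over Trem2-KO donors (horizontal axis) for the 34 genes (rows) with all 17 libraries (circles) and without S30 and S31 (diamonds), filled where the adjusted p was under 0.05. There are 13 filled circles and 0 filled diamonds, and the Aldoa value goes from 0.81 to 0.51.

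Against the microglia that the Trem2-KO; 5XFAD host would otherwise have, cells of Trem2-WT donors had 9 members higher and 7 lower (17.3% and 17.8% of all genes, median log2 0.25 and -0.011). Ldhb (log2 -2.75), Pdk1 (-0.83), Hif1a (-1.08), Bnip3l (-0.88), Bnip3 (-0.62), Pfkfb3 (-0.40) and Vhl (-0.38) fell. Pfkfb4 (1.18), Pfkp (1.03), Gpi1 (0.70), Aldoa (0.61), Pgd (0.61), Tkt (0.44), G6pdx (0.39), Pgam1 (0.39) and Vegfa (1.77) rose. This comparison shares its libraries with those above and adds no independent evidence to them. Without S30 and S31, 6 members were higher and 6 lower (1262 and 1457 of all 11940 genes tested). The Aldoa, Pgam1, Vegfa, Bnip3 and Vhl calls then ended. Without S25 and S27 the Hif1a (-0.17), Bnip3 (-0.06), Bnip3l (-0.28), Pfkfb3 (-0.41) and G6pdx (0.36) calls ended. Single libraries ended the calls of Vhl (S26, S29, S30 or S31), Vegfa (S26, S30 or S31) and Bnip3 (S25 or S27). Of the 73 further genes 12 were higher and 14 lower, led by Slc2a5 (-4.23), Slc2a6 (2.55), Slc16a6 (-1.16) and Mxi1 (-1.12). Marker sums moved here too: neutrophil 21466 to 30346 against 54921 to 128999, monocyte 3613 to 6558 against 7880 to 18479, astrocyte 1062 to 1571 against 5142 to 8835 and microglial 308757 to 336294 against 645578 to 661693. Their part was not tested.

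Whether the effect of Trem2 differed between transplanted cells and resident microglia was tested as an interaction, the Trem2-WT minus Trem2-KO difference in transplanted cells minus that in 5XFAD microglia. Of the 34 genes 2 were positive and 1 negative (1.95% and 0.87% of all genes, 236 and 105, or 223 and 156 with TMM rescaling). Pfkp was 1.11 lower with Trem2 in microglia and 0.23 higher in transplanted cells, an interaction of 1.35 ± 0.26 SE (log2, adjusted p = 0.00719). Taldo1 was lower by 0.64 in microglia and higher by 0.38 in transplanted cells, an interaction of 1.01 ± 0.21 (adjusted p = 0.0105). P4ha1 was higher by 0.32 in microglia and lower by 0.32 in transplanted cells, an interaction of -0.63 ± 0.16 (adjusted p = 0.0329). Egln3 gave -2.50 ± 0.67 and did not pass (adjusted p = 0.0544).

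Without both S30 and S31 limma called 0 interactions among members (2 positive and 3 negative at an unadjusted p under 0.05). Over all genes it called 155 in place of 341. The values were 1.17 for Pfkp (adjusted p = 0.058), 0.77 for Taldo1 (0.066) and -0.55 for P4ha1 (0.174). P4ha1 also lost its call without any 1 of S22, S23, S24, S30, S31, S32 or S35. With S26 as the only Trem2-KO; 5XFAD library the interaction was -1.57 for Hif1a, -3.55 for Egln3 and -0.94 for P4ha1. It was 1.26 for Pfkp and 0.70 for Taldo1, both smaller than with all libraries. The neutrophil and monocyte sums of S25 and S27 move with the microglial side of the Pfkp and Taldo1 values, and their part was not tested. Apart from Pfkp, no gene of upper or lower glycolysis passed the interaction test (Pkm 0.21, adjusted p = 0.668, Gapdh 0.40, adjusted p = 0.3). Of the 73 further genes 3 were positive, Anxa2 (1.61), Pygl (1.59) and Eno3 (0.84), and Bhlhe40 (-1.90) was negative.

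In the main fit with all libraries, Hk1, Hk2, Hk3, Pdk3 and Ankrd37 passed in none of the 8 comparisons above. Hk1 and Pdk3 passed in some fits with libraries left out, as given above. The hexokinases, which commit glucose to the cell, gave log2 differences between -0.50 and 0.48 in the main fit.

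Some of these counts may hold reads of neighbours or copies. The library kit does not mark strand, and exons of Pfkp overlap Pitrm1, of Gapdh Iffo1, of Tpi1 Spsb2, of G6pdx Ikbkg, of Pfkm Senp1, of Hk3 Unc5a and of Ankrd37 Ufsp2 on the opposite strand. Several glycolytic genes, Gapdh, Ldha, Eno1 and Pgam1 among them, have processed copies elsewhere in the mouse genome, and how the authors' counting treated shared reads was not given in the sources used here.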

How the data were processed

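Bulk RNA-seq was made with the SMART-Seq v4 kit from total RNA of sorted CD45+CD11b+ cells and sequenced on a NovaSeq, per the labels' protocols. The deposited signal is a table of read counts divided by 1 size factor per library, made by the authors. Every value of each library was a whole multiple of 1 step (100% within 0.02 read), so whole reads were recovered; in S20 the step is so near 1 that low values would look whole in any case. The submitters' processing notes name bcl2fastq, STAR 2.5.2b, HTSeq, RSEM, DESeq2 (version given as 3.17), mm10 and GRCm38.p6; their roles, the annotation and any filter were not given in the sources used here.

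Of 13501 genes, the 12074 that reached 10 normalized counts in 3 or more of the 17 libraries were tested on log2(normalized count + 1) by limma 3.58.1 in R 4.3.3, with 1 mean per group and trended empirical Bayes. Tests were two-sided, p-values were adjusted by Benjamini-Hochberg over all 12074 genes, and a gene was called at an adjusted p under 0.05. Fold changes are on that log2 scale, which understates changes of low genes. Groups came from the sample labels, and columns from their library numbers and names. The members and lists were chosen with earlier results of these data known. Full values are given for called members and for those needed to describe a step, and up to 4 other pathway genes per comparison by smallest adjusted p. On recovered reads the edgeR 4.0.16 quasi-likelihood test called 458, 443, 569, 1027, 3409, 3036, 4180 and 402 genes, for the comparisons of Trem2-WT; 5XFAD with normal, Trem2-KO; 5XFAD with normal, Trem2-WT with Trem2-KO microglia, the donor genotypes, the Trem2-WT pair, the Trem2-KO pair, Trem2-WT donors with Trem2-KO; 5XFAD microglia, and the interaction. Other alternatives were pseudocounts of 0.5 and 5, no filter or a minimum of 50, TMM or upper-quartile rescaling, only the compared groups, array weights, DESeq2 1.42.0, leaving out libraries, and averaging the closest pairs. Gene positions are GRCm38 from GENCODE M21, which matched 13498 of 13501 symbols.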

Additional observations from a re-analysis of the deposited data

Results flagged for a closer look

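Of 68 sets of 4 libraries, 1 per gene and transplanted group, 6 had a library that stood far from the other 3 by Dixon's criterion, and chance gives about 1 in 20. In cells of Trem2-KO donors S34 was lowest for Aldoa (11091), Pfkfb3 (1622) and Egln2 (1089), and S33 was highest for Pfkm (322). In cells of Trem2-WT donors S29 was highest for Egln1 (938.1) and S31 was highest for G6pdx (3738).

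The Trem2 difference in transplanted cells minus that in 5XFAD microglia passed the interaction test by limma for 3 genes, with log2 values of 1.345 for Pfkp (adjusted p = 0.00719), 1.012 for Taldo1 (adjusted p = 0.0105) and -0.634 for P4ha1 (adjusted p = 0.0329). Without S30 and S31 the values were 1.165, 0.767 and -0.553 and none passed. Without S25 and S27 Pfkp (1.26) and Taldo1 (0.697) lost the call and P4ha1 (-0.943) kept it.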

How the results depend on the processing

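The 83 calls on members gave 1595 values under the alternatives: 1289 stayed called in the same direction, 305 were no longer called and 1 reversed. The reversed value was Hif1a between the Trem2-KO transplanted and 5XFAD groups, 0.065 without S25 and S27 (adjusted p = 0.868), and 30 of the 83 calls held under every alternative run. Counts of members called are given in turn. For Trem2-WT; 5XFAD against normal microglia (13), averaging the closest pairs gave 5 and leaving out 1 library 4 to 7. For Trem2-KO; 5XFAD against normal (3), the compared groups alone, the lack of S25 and S27, and averaged pairs each gave 0, array weights 21, DESeq2 7, and leaving out 1 library 0 to 16. For Trem2-WT against Trem2-KO in 5XFAD microglia (6), the compared groups alone gave 3, array weights 17, DESeq2 10, averaged pairs 1, and leaving out 1 library 2 to 9. For donor genotype (13), the compared groups alone gave 4, the lack of S30 and S31 0, averaged pairs 0, and leaving out 1 library 4 to 18. For the Trem2-KO pair (10), array weights gave 22, averaged pairs 5, and leaving out 1 library 6 to 15. For Trem2-WT donors against Trem2-KO; 5XFAD microglia (16), array weights gave 27, averaged pairs 9, and leaving out 1 library 14 to 20. For the interaction (3), array weights gave 22, the lack of S30 and S31 0, averaged pairs 0, and leaving out 1 library 2 to 5. The count for the Trem2-WT pair (19) stayed between 14 and 24. Averaged pairs and left-out libraries leave fewer samples, and elsewhere the cause was not tested. Over all genes, in the order in which the edgeR counts are listed above, the calls were 457, 472, 615, 814, 3399, 3062, 4238 and 341, with lowest values of 242, 2, 167, 15, 2001, 1999, 2109 and 75 and highest values, all with array weights, of 2227, 6080, 5856, 3447, 6274, 6477, 6996 and 4538. DESeq2 called 756, 1266, 997, 1695 and, for the interaction, 875. No paired analysis was possible because the columns outside the normal group carry no replicate number that differs between libraries.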

Other observations

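Sugar and lactate transporters outside the 34 genes followed the groups in different ways. Slc2a1, the main glucose transporter, was 2217, 1796 and 1904 in normal microglia, 3489, 3461 and 3978 in Trem2-WT; 5XFAD microglia and 1388, 1810 and 1568 in Trem2-KO; 5XFAD microglia, so that all 3 Trem2-WT; 5XFAD libraries lay above all other microglial libraries. In transplanted cells it was 1776 to 2638 with Trem2-WT donors and 1306 to 1834 with Trem2-KO donors. Slc2a6 was 190 to 225 in normal microglia, 594 to 707 in Trem2-WT; 5XFAD microglia, 582, 286 and 610 in S25, S26 and S27, and 1839 to 3058 in the 8 transplanted libraries, where it was highest. Slc16a3, the lactate exporter MCT4, was 1662 to 1872 in normal microglia and 3246 to 4015 in Trem2-WT; 5XFAD microglia, and 2003, 2047 and 2218 in Trem2-KO; 5XFAD microglia, above every normal library. In transplanted cells it was 1515 to 1982 with Trem2-WT donors and 746 to 1186 with Trem2-KO donors. Slc2a5 was 26586 to 28354 in normal microglia and 25733 in S26, beside 16242 to 19113 in the other 5 libraries of 5XFAD microglia.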
